A study of Homo sapiens with 16 samples.

Results

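The genes described here are PARP9, PARP10, PARP12, PARP14, DTX3L, HERC5, HERC6, SAMD9, SAMD9L and UBE2L6, 10 interferon-inducible genes. They were taken from the array by name: every measurement probe that carried 1 of these gene symbols was used, which gave 14 of the 50599 probes. PARP9, PARP10, HERC6 and SAMD9L had 2 probes each and the other members 1 each. Where a gene had 2 probes, the brighter over all arrays stands for it and the other is given beside it.

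RNA was measured in RPMI-8226 and MM.1S, established cell lines derived from multiple myeloma, a cancer of antibody-secreting plasma cells. Each line was given the vehicle DMSO, GSK126 at 1 µM (an inhibitor of EZH2, which places the repressive mark H3K27me3), UNC0638 at 1 µM (an inhibitor of the H3K9 methyltransferase G9a and its partner GLP), or 1 µM of each together, for 6 days. Each of the 8 groups had 2 replicate cultures, and each culture was read on 1 single-colour array, 16 in all. The groups differ only in line and treatment as far as the labels say, no other allele or agent was shared, each line is 1 established line and no normal plasma cells were on the arrays. All 8 RPMI-8226 arrays were on 1 slide and all 8 MM.1S arrays on the other, so that line and slide cannot be told apart. Within a slide each treatment had a column and each replicate number a row of its own, so treatment and column cannot be told apart either.

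A level below is a probe's log2 intensity, as the scanner software processed it, after subtraction of the array's own 75th percentile on that scale, so 0 is the brightness of a probe at that percentile. Levels of different probes cannot be set against each other. The 75th percentile lay between 254 and 347 intensity units in RPMI-8226 and between 429.6 and 476 in MM.1S, and 46.5 to 49.7% and 49.9 to 52.8% of probes were well above background. Replicate arrays correlated over probes at r of 0.985 to 0.991 in RPMI-8226 and 0.993 to 0.995 in MM.1S. To check the labelled cell type, 8 plasma cell markers (SDC1, CD38, TNFRSF17, XBP1, MZB1, POU2AF1, PRDM1 and IRF4) were read, and 8 of 8 were above background on all 16 arrays. Markers of other cell types were also read. The T cell markers CD2 and CD3D, the myeloid marker CD14 and the epithelial markers KRT8 and KRT18 were above background on all 16 arrays too. Detection alone therefore does not single out plasma cells. The summed level of 3 epithelial markers, which is 2 to the power of each level added up, was 82.1 to 96.7 on the DMSO arrays of RPMI-8226 and 1.05 to 1.18 on those of MM.1S, and 3 of 3 fibroblast markers were not above background on the latter.

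Type I interferons bind a receptor that activates the kinases JAK1 and TYK2, and a complex that contains STAT2 and IRF9 then binds the interferon-stimulated response element in the promoters of target genes. Among these targets are enzymes that modify proteins. PARP9, PARP10, PARP12 and PARP14 belong to the ADP-ribosyltransferase family, and DTX3L is a ubiquitin ligase that works as a partner of PARP9. UBE2L6 and HERC5 are the conjugating enzyme and the main human ligase for ISG15, a ubiquitin-like protein, and HERC6 is the closest relative of HERC5. SAMD9 and SAMD9L are related cytoplasmic proteins that restrict growth and the replication of some viruses.

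Promoter sequences of the members are shown because the response element has a known letter pattern. RefSeq promoters (GRCh38.p14, 250 bases before to 50 after the start) were found for 9 of the 10 genes, with 2 starts for PARP9 and for UBE2L6 and PARP10 being named only. Both strands were searched for the letters GAAANNGAAA, which 3.57% of the 35116 RefSeq promoters of that length and 4.38% of the genes hold. The letters were found in 6 of the 9 genes, namely PARP9, DTX3L, PARP14, PARP12, HERC5 and SAMD9. Each is printed 5′ to 3′ in the direction of its gene, as a stretch of 30 bases with the match in capitals; matches on the other strand read TTTCNNTTTC.

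PARP9: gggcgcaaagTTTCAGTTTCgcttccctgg
DTX3L: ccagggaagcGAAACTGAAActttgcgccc
PARP14: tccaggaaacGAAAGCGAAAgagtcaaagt
PARP12: ccggggccgcTTTCGGTTTCgtttcccgcc
HERC5: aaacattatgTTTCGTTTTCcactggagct
SAMD9: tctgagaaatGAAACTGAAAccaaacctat

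The PARP9 and DTX3L stretches are chr3:122564322-122564351 read on opposite strands. These genes lie head to head with no other coding gene starting between them, the window of the first PARP9 start overlaps that of DTX3L by 137 bases, and the capitals mark the same 10 bases in both, positions -41 to -32 counted from the PARP9 start and -6 to 3 from the DTX3L start, with the start base as 0. The window of the second PARP9 start does not overlap that of DTX3L and holds no match. The PARP14 stretch (chr3:122680800-122680829, plus strand) has its match at -29 to -20, and the PARP12 stretch (chr7:140062942-140062971, minus strand) at -10 to -1. HERC5 (plus strand) held 3 matches, of which 2 overlapped, and the one shown (chr4:88457035-88457064) has its match at -74 to -65. SAMD9 (chr7:93118096-93118125, minus strand) has its match at -136 to -127, with the same 10 letters as DTX3L.

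The shorter letters AANNGAAA, which lie within every longer match above and occur in 22.8% of promoters and 26.7% of genes, were in 7 of 9 genes. SAMD9L was the gene added, and its stretch (chr7:93148413-93148442, minus strand) is printed to show how it differs from SAMD9.

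SAMD9L: ttctaaagcaaAACTGAAActgtctatact

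HERC6 and UBE2L6 held neither pattern in these windows. The letters TTCNNNGAA, the pattern of gamma-interferon-activated sites, occur in 7.66% of promoters and 9.38% of genes and were in 1 of 9 genes, PARP14. A match here is a description of letters and not of binding, which was not measured.

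**Figure D1:**
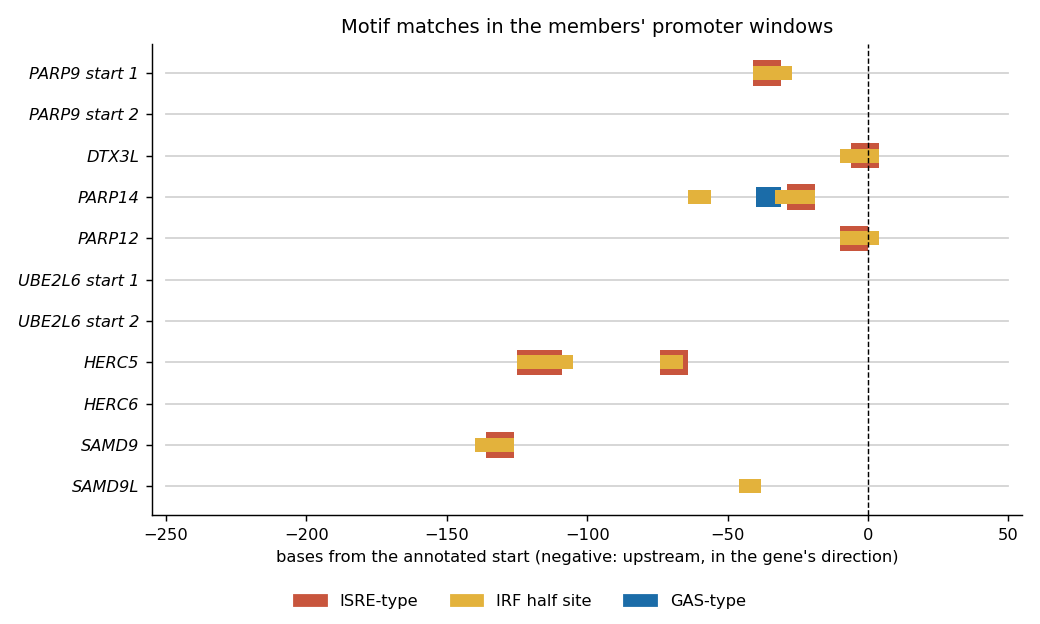
Position of the letter matches in each promoter window, in bases from the RefSeq start (horizontal axis, negative before the start), 1 row per start, in red for GAAANNGAAA, yellow for AANNGAAA and blue for TTCNNNGAA. PARP9 and DTX3L share 1 red match, HERC5 has 3, and HERC6 and UBE2L6 have none of any colour.

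In RPMI-8226 members were called under GSK126 and under the combination. Compared with DMSO, 4 of 9 members were higher under GSK126+UNC0638 by limma at an adjusted p below 0.05 (PARP9, PARP12, DTX3L and PARP14), when 7.10% of the 23196 probes tested were higher. GSK126 alone raised 1 of 9, PARP9, when 0.543% of probes were higher. UNC0638 alone moved 0 of 9, when 0.638% of probes were called in either direction, the lowest adjusted p being 0.169 with 2 of 9 at an unadjusted p below 0.05. HERC6 was not above background on any of the 8 RPMI-8226 arrays with either of its probes and was not tested there. These counts leave out the replicate number, which was taken to pair the RPMI-8226 arrays. With that number as a block, SAMD9L was also called higher under GSK126 and under the combination (adjusted p = 0.0432 and 0.00204, limma).

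In MM.1S each treatment raised several members. GSK126 raised 3 of 10 (PARP9, DTX3L and PARP12), when 5.06% of 25100 probes were higher. UNC0638 raised 5 of 10 (those 3, PARP14 and HERC6), when 12.8% were higher. PARP9 and HERC6 were below background on the DMSO arrays of MM.1S and passed the filter on dim probes only through treated groups, so that their direction was bound to it, and without the filter the UNC0638 call of HERC6 was lost. The combination raised 6 of 10, the same 5 and SAMD9, when 22.2% were higher, and HERC5 was the 1 of 10 that fell, when 31.5% were lower. These comparisons share their DMSO arrays within each line. In bulk RNA of this kind, fewer cells carrying a transcript and less RNA of it per cell cannot be told apart.

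The median log2 difference of the members from DMSO was 0.62 under GSK126, -0.07 under UNC0638 and 0.71 under the combination in RPMI-8226, beside -0.06, -0.05 and -0.14 for all probes. In MM.1S it was 0.30, 0.48 and 0.64, beside -0.05, -0.07 and -0.12. Both combination arrays lay above both DMSO arrays for 6 of 9 members in RPMI-8226, where 21.5% of probes did so, and for 7 of 10 in MM.1S, where 32.9% did.

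**Figure D2:**
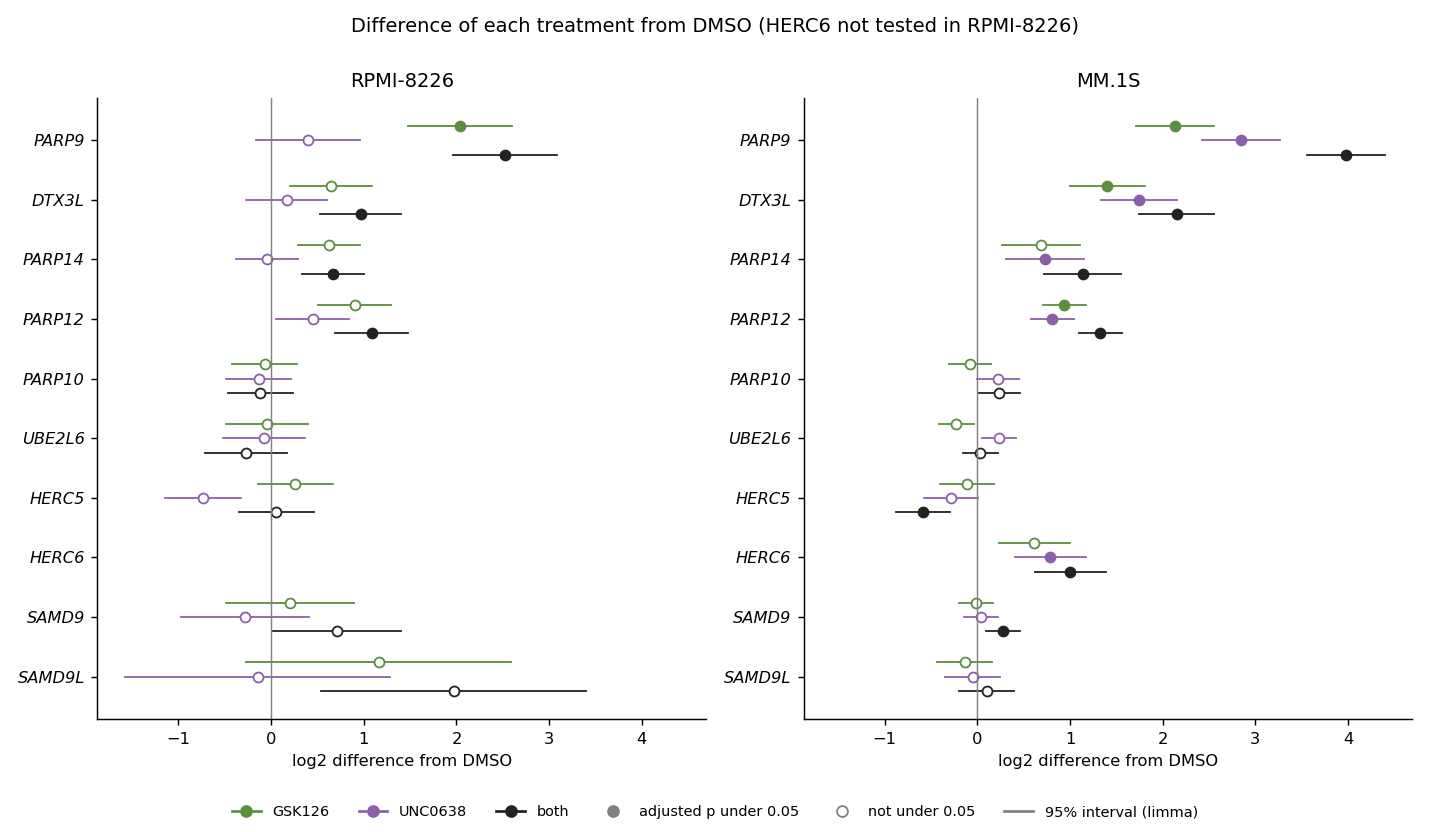
Log2 difference from DMSO (horizontal axis) of each member under each treatment, 1 panel per line, with lines for the 95% interval and filled points for an adjusted p under 0.05. In MM.1S, PARP9 and DTX3L stood highest under all 3 treatments, at 3.98 (on DMSO arrays at background) and 2.15 under the combination, while UBE2L6 and PARP10 lay between -0.23 and 0.23.

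Other transcripts moved with the combination. The shares of all probes called with it were 7.10% higher and 5.45% lower in RPMI-8226 and 22.2% higher and 31.5% lower in MM.1S. Called lower were 3 of 8 plasma cell markers in RPMI-8226 (summed level 282 to 343 under DMSO, 179.7 to 237 under the combination) and 8 of 8 in MM.1S (544 to 554, and 375 to 379.9). All 3 T cell markers were called higher in RPMI-8226, with summed levels of 0.234 to 0.394 under DMSO and 5.92 to 6.36 under the combination, and in MM.1S the sums were 0.222 to 0.256 and 0.713 to 0.770, CD3E not being above background in DMSO of either line. Of 2 myeloid markers tested in RPMI-8226, CD14 was called and CSF1R was not. CD14 rose by 2.60 under GSK126 and by 2.65 under the combination on the log2 scale (limma, adjusted p = 0.0207 and 0.00214). The medians over both markers were 2.64 and 2.57, so the fitted rise of CSF1R was of similar size though not called. Of the fibroblast markers tested, 1 of 2 was higher in RPMI-8226 (COL1A2, at least 2.93-fold) and 1 of 1 in MM.1S (DCN, at least 1.19-fold), with summed levels of 0.475 to 0.835 under DMSO and 0.821 to 2.12 under the combination in RPMI-8226, and of 0.0242 to 0.0261 and 0.0619 to 0.0849 in MM.1S. COL1A2 in RPMI-8226 and DCN in MM.1S were below background under DMSO. These genes, and CD3E in both lines, passed the filter only through treated groups, so their direction was bound to it. Of 3 epithelial markers, 1 was lower in RPMI-8226 and 2 lower and 1 higher in MM.1S, the sums under the combination being 67.1 to 68.2 and 0.929 to 0.969. The part of these cell type markers in the members' results was not tested. Taking the percentile over probes detected on all arrays moved the median of all probes under the combination from -0.14 to -0.00 in RPMI-8226 and from -0.12 to 0.07 in MM.1S, and the probes called higher and lower from 1648 and 1264 to 1912 and 643 in RPMI-8226 and from 5565 and 7899 to 7429 and 5346 in MM.1S. The corresponding split went from 1269 and 608 to 1653 and 334 for GSK126 in MM.1S, and from 3204 and 4193 to 4028 and 2680 for UNC0638 in MM.1S. No member called against DMSO lost its call under that scaling.

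PARP9 had the largest fitted difference of the members under the combination in both lines. Its probe lies on chromosome 3 from 122247297 to 122247356 on the minus strand (GRCh37, the build of the array design), and PARP9 protein binds ADP-ribose and acts with DTX3L. In RPMI-8226 the PARP9 level was -1.78 and -2.36 on the DMSO arrays, 0.10 and -0.17 with GSK126, -1.54 and -1.81 with UNC0638, and 0.57 and 0.34 with the combination. The combination arrays lay above the GSK126 arrays and these above the rest, while UNC0638 and DMSO overlapped. PARP9 rose 4.10-fold with GSK126 (log2 difference 2.04, SE 0.23, adjusted p = 0.0316 by limma) and 5.75-fold with the combination (2.52, SE 0.23, adjusted p = 0.00188). The difference under UNC0638 was 0.40 with a 95% interval of -0.16 to 0.96 (limma, adjusted p = 0.685). The GSK126 call was lost whichever of the 8 arrays was left out (highest adjusted p 0.177) and without the filter on dim probes (0.0922, limma), while the combination call was kept in each of these fits.

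In MM.1S the PARP9 level was -4.98 and -5.06 on the DMSO arrays, where the probe was not well above background. It was -2.73 and -3.06 with GSK126, -2.05 and -2.30 with UNC0638, and -1.22 and -0.87 with the combination, so that no groups overlapped. Folds are therefore lower bounds, set against the dimmest signal among probes well above background on each DMSO array or the probe's own signal there, whichever was higher. PARP9 was at least 3.69-fold higher with GSK126, at least 6.06-fold with UNC0638 and at least 13.3-fold with the combination (limma, adjusted p = 0.00479, 0.000693 and 9.79e-05). Each of these calls was kept without each of the 8 arrays.

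The other PARP9 probe, on chromosome 3 from 122250689 to 122250748, was also below background on the DMSO arrays of MM.1S, at -6.69 and -6.17. It was higher there by at least 2.89-fold with GSK126, 5.32-fold with UNC0638 and 7.59-fold with the combination (limma, adjusted p = 0.00409, 0.000682 and 0.000143). This probe too passed the filter in MM.1S only through treated groups, so its direction there was bound to it. In RPMI-8226 it rose by 1.44 on the log2 scale with the combination (adjusted p = 0.00886, limma), while its difference with GSK126 was 1.16 (adjusted p = 0.0986), so the GSK126 call rests on the brighter probe.

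DTX3L, the ubiquitin ligase encoded next to PARP9, was measured above background in every group. Its probe lies on chromosome 3 from 122293039 to 122293098 on the plus strand (GRCh37). In RPMI-8226 the DTX3L level was -0.51 and -0.55 with DMSO, 0.31 and -0.07 with GSK126, -0.30 and -0.42 with UNC0638, and 0.29 and 0.58 with the combination. The GSK126 and combination arrays overlapped, and both lay above the other groups. DTX3L rose by 0.97 on the log2 scale with the combination (SE 0.18, adjusted p = 0.0221 by limma), and the differences with GSK126 and UNC0638 were 0.65 (adjusted p = 0.272) and 0.17 (adjusted p = 0.855). The combination call was lost on leaving out either DMSO array or either combination array (highest adjusted p 0.0848) and without the filter on dim probes (0.0619, limma).

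In MM.1S the DTX3L level was -2.20 and -2.57 with DMSO, -0.81 and -1.15 with GSK126, -0.71 and -0.57 with UNC0638, and -0.20 and -0.27 with the combination. The groups did not overlap, and stood in the same order as those of PARP9. DTX3L rose 2.64-fold with GSK126, 3.35-fold with UNC0638 and 4.44-fold with the combination (log2 differences 1.40, 1.74 and 2.15, SE 0.17, adjusted p = 0.0109, 0.0023 and 0.000358 by limma). The GSK126 call was lost without DMSO replicate 2 or GSK126 replicate 1 (highest adjusted p 0.0631), and the others were kept without each array. Over the 16 arrays, each gene centred on its line's mean, PARP9 and DTX3L correlated at r = 0.951, a description over arrays that share lines and treatments.

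PARP14, a mono-ADP-ribosyltransferase with macrodomains, lies downstream of DTX3L and was read by a probe on chromosome 3 from 122437444 to 122437503 on the plus strand (GRCh37). PARP15, the coding gene between them, was above background on 0 of 16 arrays. In RPMI-8226 the PARP14 level was 0.22 and 0.37 with DMSO, 0.96 and 0.88 with GSK126, 0.16 and 0.34 with UNC0638, and 0.95 and 0.98 with the combination. The arrays fell into an upper pair of groups, GSK126 and the combination, and a lower pair, DMSO and UNC0638, with overlap within each pair. By limma PARP14 rose by 0.67 with the combination (SE 0.14, adjusted p = 0.0294), a call lost without the filter (0.0933) and on leaving out any of the DMSO, UNC0638 or combination arrays, 6 in all (highest adjusted p 0.127). It differed by 0.62 with GSK126 (adjusted p = 0.169) and by -0.05 with UNC0638 (adjusted p = 0.955).

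In MM.1S the PARP14 level was -0.50 and -0.15 with DMSO, 0.51 and 0.21 with GSK126, 0.37 and 0.44 with UNC0638, and 0.66 and 0.95 with the combination. All treated arrays lay above the DMSO arrays, and GSK126 and UNC0638 overlapped. PARP14 rose by 0.73 with UNC0638 and by 1.14 with the combination (SE 0.17, adjusted p = 0.0253 and 0.0026, limma), and the difference with GSK126 was 0.69 (adjusted p = 0.0663, and 0.0202 to 0.0442 with normexp, in the 16-array fit or with the strict filter). The UNC0638 call was lost without the filter (0.077) and on leaving out DMSO replicate 1 or either UNC0638 array, up to an adjusted p of 0.111 by limma.

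PARP12 is a mono-ADP-ribosyltransferase with zinc fingers, read as the mean of 10 spots of 1 probe on chromosome 7 from 139723946 to 139724005 on the minus strand (GRCh37). In RPMI-8226 the PARP12 level was 0.09 and 0.12 with DMSO, 1.10 and 0.91 with GSK126, 0.46 and 0.66 with UNC0638, and 1.04 and 1.34 with the combination. The UNC0638 arrays lay between DMSO and the overlapping GSK126 and combination arrays. PARP12 rose 2.12-fold with the combination (log2 difference 1.08, SE 0.16, adjusted p = 0.0106 by limma), a call at an adjusted p of 0.0502 without DMSO replicate 1. The differences with GSK126 and UNC0638 were 0.90 (adjusted p = 0.103, and 0.00528 in a limma fit over all 16 arrays) and 0.45 (adjusted p = 0.441).

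In MM.1S the PARP12 level was -0.30 and -0.49 with DMSO, 0.58 and 0.51 with GSK126, 0.40 and 0.43 with UNC0638, and 0.90 and 0.97 with the combination. No groups overlapped, with GSK126 above UNC0638, the reverse of PARP9 and DTX3L. PARP12 rose by 0.94 with GSK126, 0.81 with UNC0638 and 1.33 with the combination (adjusted p = 0.0076, 0.00391 and 0.000294 by limma), the last being 2.51-fold. The GSK126 call was lost without GSK126 replicate 1 (adjusted p = 0.0581 by limma).

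PARP10, also a mono-ADP-ribosyltransferase, differed little between treatments. Its levels ran from 3.30 to 3.62 over the RPMI-8226 arrays, with the groups overlapping, and from 3.69 to 4.10 over the MM.1S arrays. The difference under the combination was -0.12 in RPMI-8226 (95% interval -0.47 to 0.23, adjusted p = 0.619) and 0.23 in MM.1S (adjusted p = 0.0752, limma). In MM.1S the combination value was called under both other scalings, at 0.42 (adjusted p = 0.0121) and 0.54 (adjusted p = 0.0041, limma), and with normexp (0.26, adjusted p = 0.0177). The UNC0638 value there, 0.22 (adjusted p = 0.12), was called after quantile normalization (0.39, adjusted p = 0.0279) and with normexp (0.23, adjusted p = 0.0488, limma). Its other probe was dim, above background on 4 RPMI-8226 and 8 MM.1S arrays, and was called in no comparison.

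UBE2L6, the conjugating enzyme for ISG15, was read on chromosome 11 from 57319897 to 57319956 on the minus strand (GRCh37). Its levels ran from 1.46 to 2.05 over the RPMI-8226 arrays, with overlap of all neighbouring groups, and from 1.56 to 2.06 in MM.1S. Under the combination it differed from DMSO by -0.27 in RPMI-8226 (95% interval -0.71 to 0.18) and by 0.03 in MM.1S (95% interval -0.16 to 0.22), with adjusted p of 0.359 and 0.749 by limma. It passed the test against DMSO under no treatment in either line, and its UNC0638 difference in MM.1S, 0.23 (adjusted p = 0.0656), did so under both other scalings (0.33 and 0.32, adjusted p = 0.0286 and 0.0338, limma).

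HERC5, the ISG15 ligase, was read as the mean of 10 spots of 1 probe on chromosome 4 from 89426889 to 89426948 on the plus strand (GRCh37). In MM.1S the HERC5 level was 1.41 and 1.32 with DMSO, 1.32 and 1.19 with GSK126, 1.16 and 1.00 with UNC0638, and 0.90 and 0.65 with the combination. This order is the reverse of that of PARP9, with only DMSO and GSK126 touching. HERC5 fell by 0.58 on the log2 scale with the combination (SE 0.12, adjusted p = 0.00802 by limma), a call kept without each array, and under the percentile over detected probes the fall was -0.40. The differences with GSK126 and UNC0638 were -0.11 (adjusted p = 0.598) and -0.28 (adjusted p = 0.124).

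In RPMI-8226 the HERC5 level was -0.48 and -0.78 with DMSO, -0.52 and -0.22 with GSK126, -1.36 and -1.37 with UNC0638, and -0.62 and -0.52 with the combination. The UNC0638 arrays lay below all others and the rest were close together. The UNC0638 difference was -0.73 (95% interval -1.14 to -0.33) with an adjusted p of 0.169 in the fit over the 8 arrays of the line and of 0.0242 in a single limma fit over all 16. The HERC5 difference under the combination was 0.06 (adjusted p = 0.841, limma).

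HERC6 lies beside HERC5 with no other coding gene starting between them, and its probe is on chromosome 4 from 89363667 to 89363726 on the plus strand (GRCh37). In MM.1S the HERC6 level was -5.14 and -5.27 with DMSO, not well above background, -4.47 and -4.71 with GSK126, -4.33 and -4.50 with UNC0638, and -4.39 and -4.01 with the combination. All treated arrays lay above DMSO, the UNC0638 arrays overlapped those of GSK126 and of the combination, and the combination arrays lay above those of GSK126. HERC6 was at least 1.28-fold higher with UNC0638 and at least 1.49-fold with the combination (adjusted p = 0.0157 and 0.00296 by limma), and at least 1.14-fold with GSK126 (adjusted p = 0.0696). The UNC0638 call was lost with normexp background correction (0.10, adjusted p = 0.41), without the filter (0.0531), in the 16-array fit (0.189, limma) and on leaving out either DMSO or either UNC0638 array, and the combination call in the 16-array fit (0.0591). The other HERC6 probe was above background on 3 MM.1S arrays and was at least 1.13-fold higher with UNC0638 (adjusted p = 0.037) and at least 1.68-fold with the combination (adjusted p = 0.00428, limma). It passed the filter only through the combination group, so its direction with the combination was bound to it. HERC3, of the other HERC genes, was above background on 0 arrays.

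Of the other genes of the ISG15 pathway, a list of 5, ISG15, UBA7 and USP18 were called and TRIM25 and ARIH1 were not. ISG15 itself rose by 1.54 in RPMI-8226 and by 1.88 in MM.1S with the combination (adjusted p = 0.00965 and 0.000448, limma), and in MM.1S also with GSK126 (1.05, adjusted p = 0.0211) and UNC0638 (1.01, adjusted p = 0.00831). UBA7, the activating enzyme for ISG15, rose in MM.1S by 0.58, 1.83 and 2.47 with GSK126, UNC0638 and the combination (limma, adjusted p = 0.031, 0.000623 and 9.79e-05). USP18, which removes ISG15 from proteins, was at least 2.04-fold higher with the combination in RPMI-8226 (adjusted p = 0.0128) and rose by 2.09 in MM.1S (adjusted p = 0.000143, limma). In RPMI-8226 USP18 was below background under DMSO and passed the filter only through treated groups, so its direction was bound to it. Under the combination 2 of 4 genes tested were higher in RPMI-8226, when 7.10% of probes were. In MM.1S 3 of 5 were higher, when 22.2% of probes were, and none was lower in either line.

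**Figure D3:**
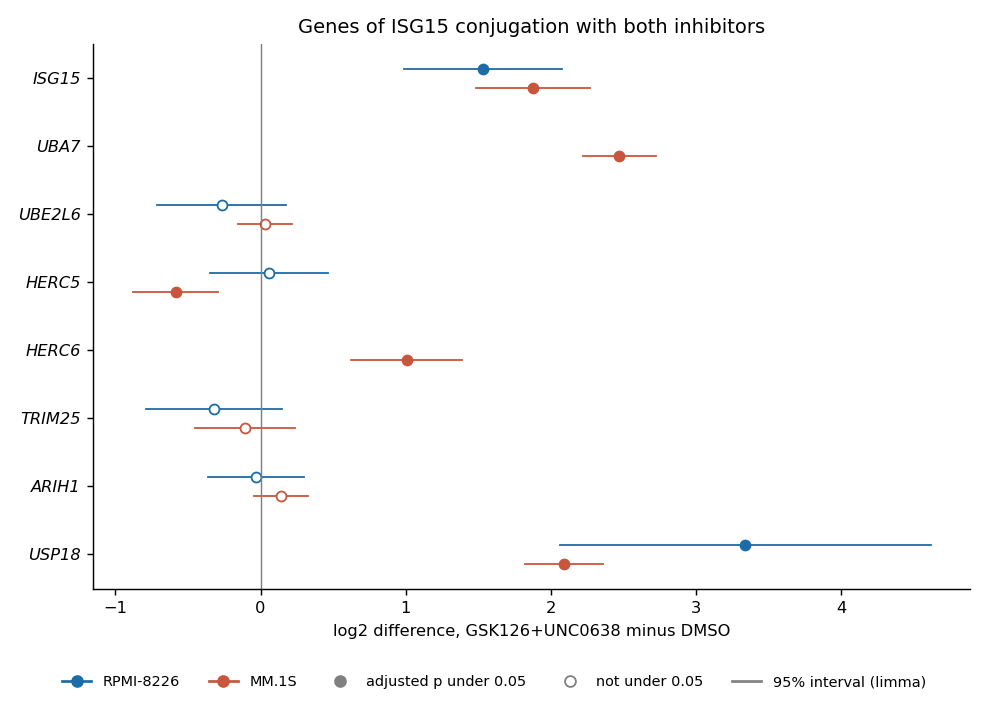
Log2 difference of the combination from DMSO (horizontal axis) of UBE2L6, HERC5 and HERC6 and of the 5 other genes of the ISG15 pathway, by line, with lines for the 95% interval and filled points for an adjusted p under 0.05. In MM.1S ISG15 stood at 1.88 and UBA7 at 2.47, while UBE2L6 stood at 0.03 and HERC5 at -0.58, and HERC6 in MM.1S and USP18 in RPMI-8226 rest on DMSO arrays at background.

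SAMD9L, a growth-restricting protein, was read on chromosome 7 from 92760219 to 92760278 on the minus strand (GRCh37), and its 2 replicates differed widely in RPMI-8226. The SAMD9L level was 0.34 and -0.91 with DMSO, 1.54 and 0.22 with GSK126, -0.04 and -0.82 with UNC0638, and 2.08 and 1.29 with the combination. Replicate 1 lay above replicate 2 in all 4 groups, and neighbouring groups overlapped. The combination arrays lay above both DMSO arrays. The difference under the combination was 1.97 (SE 0.60, adjusted p = 0.0779 by limma), and with the replicate number as a block, which pairs the RPMI-8226 arrays, the adjusted p was 0.00204, the same-numbered differences being 1.74 and 2.20. It was also called in the 16-array fit (adjusted p = 0.0127) and with normexp (0.0236, limma). With GSK126 the difference was 1.16 (adjusted p = 0.547, and 0.0432 with the block by limma), the pairs giving 1.19 and 1.13. With UNC0638 it was -0.14 (adjusted p = 0.965). The other probe gave 1.93 with the combination (adjusted p = 0.0748) and 1.41 with GSK126 (adjusted p = 0.452) without the block.

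In MM.1S the SAMD9L level was 3.74 and 3.60 with DMSO, 3.68 and 3.40 with GSK126, 3.67 and 3.57 with UNC0638, and 3.83 and 3.71 with the combination. Neighbouring groups overlapped and no treatment was called. The combination value was 0.10 (adjusted p = 0.518), and 0.42 after quantile normalization (adjusted p = 0.0328, limma).

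SAMD9, its neighbour with no other coding gene starting between them, was read on chromosome 7 from 92729782 to 92729841 on the minus strand (GRCh37). In MM.1S the SAMD9 level was -1.04 and -1.02 with DMSO, -1.08 and -1.01 with GSK126, -1.01 and -0.96 with UNC0638, and -0.78 and -0.73 with the combination. The combination arrays lay above all others, by a small margin. SAMD9 rose by 0.28 with the combination (SE 0.075, adjusted p = 0.0232 by limma), a call lost after quantile normalization (0.19, adjusted p = 0.0831), without the filter (0.0824), in the 16-array fit (0.354, limma) and on leaving out DMSO replicate 1, DMSO replicate 2 or combination replicate 2 (up to 0.0925). In RPMI-8226 the SAMD9 level was -2.88 and -3.38 with DMSO, -2.53 and -3.33 with GSK126, -3.47 and -3.35 with UNC0638, and -2.37 and -2.46 with the combination, a difference of 0.71 under the combination (SE 0.29, adjusted p = 0.147, and 0.0364 in the 16-array limma fit). The combination arrays lay highest there too, and the other groups overlapped.

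**Figure D4:**
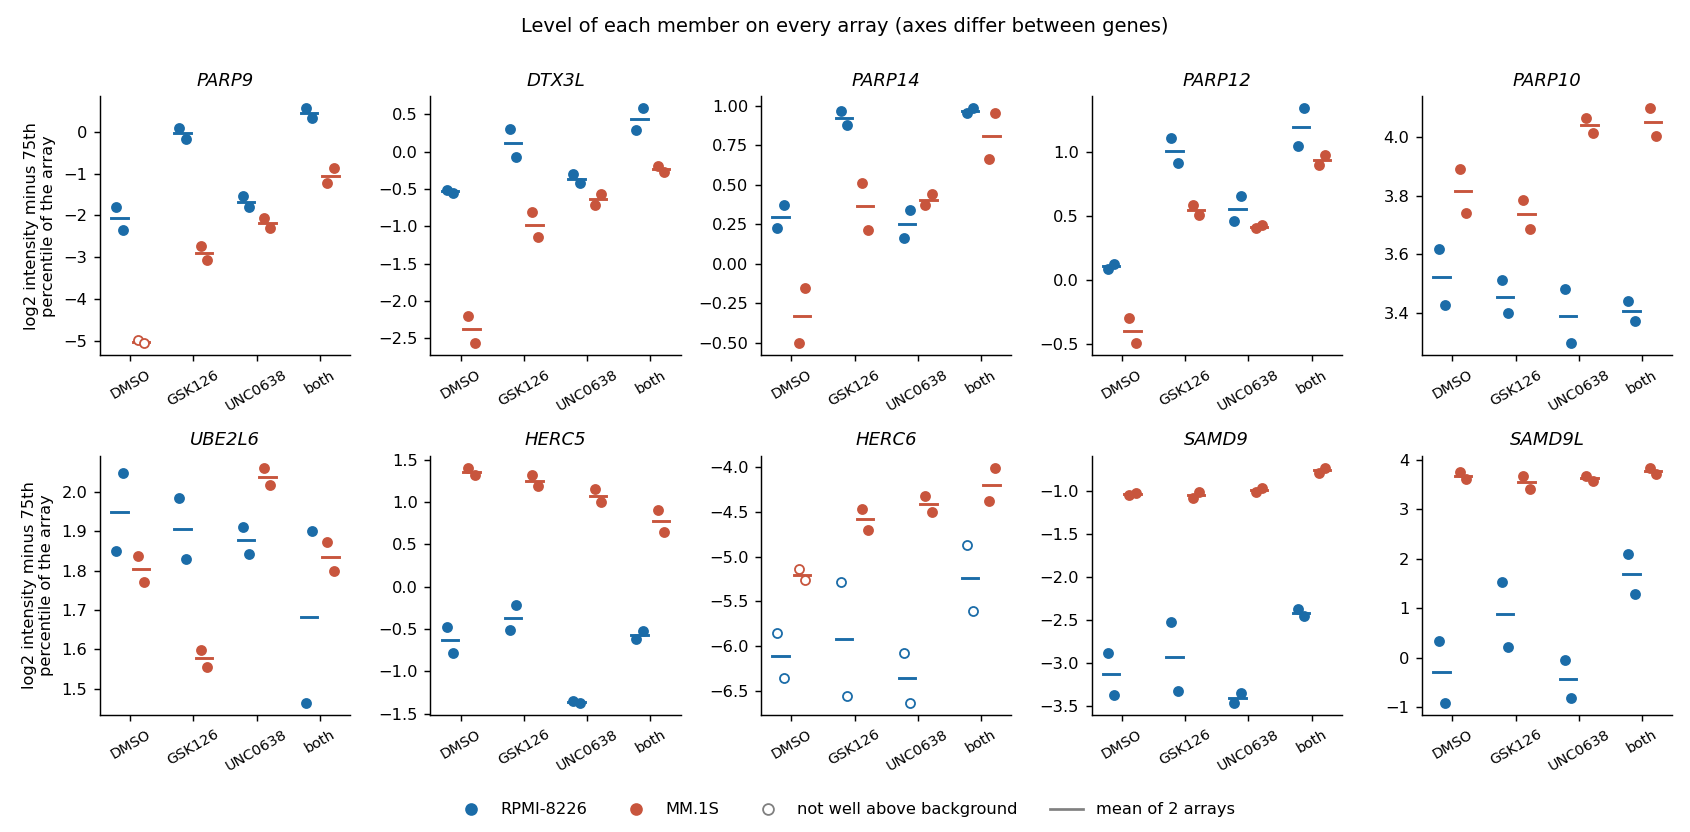
Level of each member on every array (vertical axis, log2 scale, 0 at the 75th percentile), by treatment and line, with 1 panel and scale per gene, dashes for the mean of 2 arrays and open points for arrays not well above background. PARP9 climbs from -4.98 and -5.06 to -1.22 and -0.87 in MM.1S, HERC5 steps down there from 1.41 and 1.32 to 0.90 and 0.65, and SAMD9L replicates lie far apart in RPMI-8226.

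The combination was next compared with each agent alone, which asks whether the second agent adds to the first. In RPMI-8226, 0 of 9 members differed between the combination and GSK126, when 2.57% of probes did in either direction, with 0 of 9 at an unadjusted p below 0.05 by limma. PARP9 and PARP14 were the 2 of 9 higher than with UNC0638 (2.13, adjusted p = 0.00716, and 0.72, adjusted p = 0.0487, limma), when 2.70% of probes were higher. The PARP9 call was lost without combination replicate 1 (adjusted p = 0.0609) and the PARP14 call whichever of the 8 arrays was left out (up to 0.312, limma), while the 16-array fit called 7 of 9 higher. SAMD9L differed from UNC0638 by 2.11 (adjusted p = 0.133, and 0.00369 with the replicate block by limma).

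In MM.1S 6 of 10 members were higher under the combination than under GSK126, when 15.3% of probes were, and 1 of 10 was lower, when 21.5% were. PARP9 stood 3.60-fold higher (1.85, adjusted p = 0.00171), and DTX3L by 0.75 (adjusted p = 0.0174), PARP12 by 0.39 (adjusted p = 0.0232), PARP10 by 0.32 (adjusted p = 0.0413), SAMD9 by 0.29 (adjusted p = 0.0287) and UBE2L6 by 0.26 (adjusted p = 0.0435) on the log2 scale, all by limma. HERC5 was lower by -0.48 (adjusted p = 0.0254, limma). Of these calls that of PARP9 was kept without each array, and the others were lost on leaving out 3 to 8 of the 8 arrays singly and without the filter (adjusted p 0.0559 to 0.141, limma). The 16-array fit lost those of PARP12 (0.051), PARP10 (0.0674), SAMD9 (0.39) and UBE2L6 (0.213, limma). Averaging its probes ended the PARP10 call (0.18, adjusted p = 0.634), and the percentile over detected probes that of HERC5 (-0.37, adjusted p = 0.062, limma). Against UNC0638, PARP9 (2.19-fold, adjusted p = 0.0189) and PARP12 (0.52, adjusted p = 0.0276, limma) were the 2 of 10 higher, when 6.02% of probes were. The other PARP9 probe differed from UNC0638 by 0.51 on the log2 scale (adjusted p = 0.199, limma), so that call rests on the brighter probe. Against GSK126 the other probe was higher by 1.39 (adjusted p = 0.00791, limma). Leaving out 1 array ended the PARP9 call in 3 of 8 fits and the PARP12 call in 6, and both were lost without the filter (0.0631 and 0.0929).

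The lines also differed under DMSO alone, where the members split evenly. In RPMI-8226 4 of 10 were higher than in MM.1S, when 28.9% of 26928 probes were, and 4 of 10 lower, when 28.8% were. PARP9 was at least 6.51-fold higher in RPMI-8226 (adjusted p = 1.01e-06, limma), and by its other probe at least 9.39-fold. DTX3L was 3.61-fold higher (adjusted p = 8.91e-06), PARP14 by 0.63 (adjusted p = 0.00578) and PARP12 by 0.50 (adjusted p = 0.00749, limma) on the log2 scale. SAMD9L was 15.5-fold lower in RPMI-8226 (adjusted p = 5.01e-05), SAMD9 4.29-fold (adjusted p = 1.94e-05) and HERC5 3.98-fold (adjusted p = 1.01e-06, limma). PARP10 was lower by -0.30 (adjusted p = 0.0477), a call lost on leaving out 13 of the 16 arrays singly, and UBE2L6 differed by 0.15 (adjusted p = 0.406). The PARP14 and PARP12 calls were lost without MM.1S DMSO replicate 1 (0.0615) and replicate 2 (0.0667, limma) respectively. HERC6 was not above background under DMSO in either line. Slide and line change together here.

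Whether the response to a treatment differed between the lines was tested as the difference of the differences in 1 limma fit over the 16 arrays. For UNC0638, PARP9 and DTX3L were the 2 of 10 members with a smaller response in RPMI-8226 than in MM.1S, when 1.83% of probes had one. The DTX3L response was 0.17 in RPMI-8226 and 1.74 in MM.1S, a difference of -1.57 (SE 0.25, adjusted p = 0.0121, limma). For PARP9 the fitted difference was -2.45 (SE 0.31, adjusted p = 0.00335, limma), and its size rests on DMSO arrays of MM.1S at background. For the combination the same genes were the 2 of 10, when 6.08% of probes had a smaller response, at -1.18 for DTX3L (adjusted p = 0.0147) and -1.45 for PARP9 (adjusted p = 0.0136, limma).

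With normexp background correction the PARP9 difference for the combination was 0.09 (adjusted p = 0.795, limma), so its direction turned, while the DTX3L call was kept. Without 1 array, the DTX3L call for UNC0638 was lost in 1 fit (MM.1S UNC0638 replicate 2, adjusted p = 0.0523, limma), that for the combination in 1 (MM.1S DMSO replicate 2, 0.0572) and that of PARP9 for the combination in 1 (MM.1S combination replicate 2, 0.0562). For GSK126, 0 of 10 members differed, when 0.776% of probes did in either direction, with 1 of 10 at an unadjusted p below 0.05. There the PARP9 difference was -0.09 with a 95% interval of -0.78 to 0.59, and that of DTX3L -0.76 with -1.32 to -0.19 (adjusted p = 0.948 and 0.289, limma). The other PARP9 probe gave -2.03 (adjusted p = 0.0272), -3.96 (adjusted p = 0.000366) and -3.15 (adjusted p = 0.000374, limma) for GSK126, UNC0638 and the combination. SAMD9L moved the other way, by 1.30 for GSK126 and 1.87 for the combination, and was called with the replicate block (adjusted p = 0.573 and 0.103 without it, 0.0271 and 0.00115 with it, limma) and, for the combination, with normexp (0.0353).

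**Figure D5:**
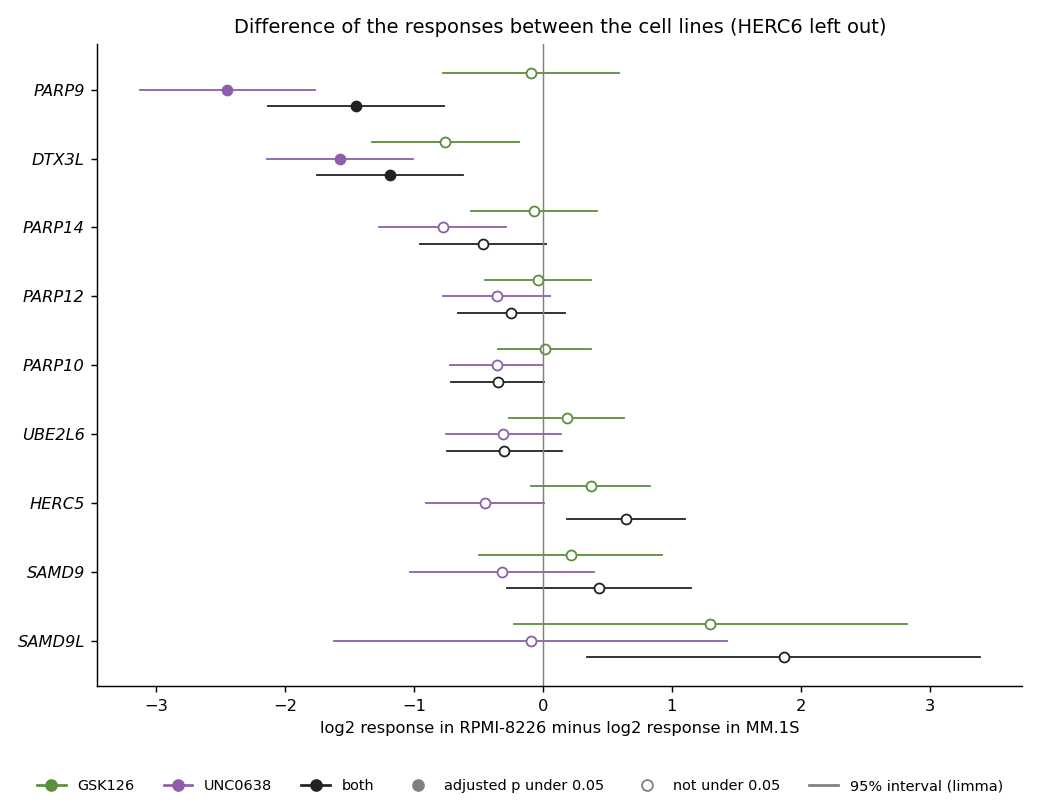
Response to each treatment in RPMI-8226 minus that in MM.1S (log2 scale, horizontal axis) for each member tested in both lines, with lines for the 95% interval and filled points for an adjusted p under 0.05. For UNC0638, PARP9 at -2.45 and DTX3L at -1.57 stand below 0, and SAMD9L, not called here, stands at 1.87 for the combination.

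The members were set beside lists of related genes. For the combination the shares of all probes called were 7.10% higher and 5.45% lower in RPMI-8226 and 22.2% higher and 31.5% lower in MM.1S. Of 13 other PARP family genes, 0 of 11 tested were higher and 1 lower with the combination in RPMI-8226, and 4 of 12 were higher and 2 lower in MM.1S. PARP1, the DNA-damage enzyme of the family, was the gene that fell in RPMI-8226 (-0.57, adjusted p = 0.0497, limma), and TIPARP rose by 0.69 in MM.1S (adjusted p = 0.0024). Of 6 enzymes that remove ADP-ribose, 1 of 6 was higher in RPMI-8226, ADPRH at 1.15 (adjusted p = 0.00815), and 2 of 6 were higher and 2 lower in MM.1S, where ADPRH rose by 2.71 (adjusted p = 0.000377, limma). Of the other HERC genes, 0 of 3 tested were called in RPMI-8226 and 1 of 3 fell in MM.1S, HERC2 at -0.53 (adjusted p = 0.00735, limma). Of the other Deltex genes, relatives of DTX3L, 0 of 1 tested was called in RPMI-8226 and 2 of 3 were higher in MM.1S, DTX3 by 1.20 (adjusted p = 0.0186) and DTX4 by at least 1.32-fold (adjusted p = 0.000742, limma). DTX4 was above background on 2 arrays and passed the filter only through the combination group, so its direction was bound to it.

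Transcripts for receptors and signal carriers of the pathway were read too. With the combination 5 of 14 were higher and 0 lower in RPMI-8226, where 7.10% of probes were higher, and 8 of 13 higher and 1 lower in MM.1S, where 22.2% were higher and 31.5% lower. IRF9 rose by 1.53 in RPMI-8226 and 1.48 in MM.1S (adjusted p = 0.00444 and 0.000208, limma). STAT2 rose by 0.88 in MM.1S (adjusted p = 0.000961), its difference in RPMI-8226 being 0.81 (adjusted p = 0.165, limma). The interferon genes IFNB1, IFNA2 and IFNG were above background on 0 of 16 arrays, and of the interferon genes tested 0 of 1 in RPMI-8226 and 0 of 2 in MM.1S were called with the combination, while IFNL1 (IL29 on the array) was the 1 of 2 higher with UNC0638 in MM.1S, by at least 1.42-fold (adjusted p = 0.0108, limma). IFNL1 was above background on 2 arrays and passed the filter only through that UNC0638 group, so its direction was bound to it.

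Of 18 other interferon-stimulated genes, 9 of 16 tested were higher with the combination in RPMI-8226 and 15 of 18 in MM.1S, with 0 and 1 lower. IFI44 rose by 2.92 and 2.90 (adjusted p = 0.00495 and 0.00062, limma), and BST2 was the gene that fell, at -0.38 in MM.1S (adjusted p = 0.0131). In MM.1S UNC0638 raised 14 of 18 and GSK126 8 of 18, when 12.8% and 5.06% of probes were higher. In RPMI-8226 they raised 0 and 2 of 16, when 0.556% and 0.543% of probes were higher. Of the 18 genes, 12 were above background on all 16 arrays. Among the rest, IFI44L was so on 5 arrays in RPMI-8226 and 4 in MM.1S, and IFIT2 on 2 in MM.1S. Any gene that passed the filter only through treated groups had its direction bound to it, and these counts include such genes.

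The members did not vary as 1 set. Over the 16 arrays, centred within each line, the correlation of each member with the mean of the other 8 tested in both lines was 0.909 for PARP9, 0.895 for PARP14, 0.870 for PARP12, 0.850 for DTX3L, 0.710 for SAMD9 and 0.600 for SAMD9L. It was 0.371 for PARP10, 0.0218 for HERC5 and -0.149 for UBE2L6, and within RPMI-8226 and MM.1S it was 0.0205 and 0.655 for PARP10, 0.547 and -0.848 for HERC5 and -0.459 and 0.207 for UBE2L6. Among the genes outside the list whose profile was most like the mean of these 9 members, of 15219 genes, were CFHR3 (r = 0.964), IFI44 (0.961), DUSP6 (0.958), FCRL4 (0.948), TRIOBP (0.945), RTP4 (0.945), ISG15 (0.941), DDX60L (0.940) and IRS1 (0.939). These correlations are descriptions over arrays that share treatments and slides.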

How the data were processed

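RNA of 16 cultures (2 lines, 4 treatments, 2 replicates) was labelled with Cy3 and hybridised to Agilent SurePrint G3 Human GE v2 arrays. The authors deposited scanner files made with Agilent Feature Extraction 10.7, per the submitters' processing notes, whose values are intensity per spot, background-subtracted and detrended but not scaled between arrays. The deposited table of the whole series held the same intensity values (99.9956% of 939472 equal after rounding to 3 digits). The methods name Gene Spring GX and no test.

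Of 62976 spots, 4259 controls were left out with outlier spots (220 to 358 per array), and spots of a probe were averaged, which left 50599 probes. Values were log2 intensity minus the 75th percentile of the array. A probe entered a fit if 1 or more of its groups had it well above background on each array: 23196 in RPMI-8226, 25100 in MM.1S and 26928 over both. limma 3.58.1 in R 4.3.3 (lmFit, eBayes) was fitted to the 8 arrays of each line, and to all 16 for differences between lines, with Benjamini-Hochberg adjustment over all probes kept and a threshold of 0.05. Two-sided 95% intervals are from the same fits and unadjusted. Precision is limited by the 2 cultures per group. On simulated data with 200 probes changed by 1.5 on the log2 scale, 54.5% were recovered for the combination against DMSO in RPMI-8226 (8 of 117 calls false, 23195 probes) and 75% in MM.1S (12 of 162, 25095 probes). A far larger share was called in the data, 12.6% of probes in RPMI-8226 and 53.6% in MM.1S in either direction. The recovered shares hold for the simulated setting only.

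The labels number the replicates 1 and 2 in every group. Deviations of same-numbered arrays correlated above 0.1 in 6 of 6 pairs of groups in RPMI-8226 (r 0.254 to 0.415) and in 5 of 6 in MM.1S (0.0847 to 0.225). By a rule that every pair must pass 0.1, the numbers were taken to pair the arrays in RPMI-8226 and not in MM.1S. Replicate number and slide row change together, so that paired cultures and a shared row cannot be told apart. The fits used for the counts of members leave the replicate number out, and the replicate block is an alternative to them. Alternatives tried were quantile normalization, the percentile over detected probes, normexp (offset 50), no filter, a strict filter (above background on all arrays of the fit), averaging a gene's probes, 1 fit over all arrays, the replicate block, the series table, a rule of 2-fold in both same-numbered pairs and leaving out each array.

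All 10 members were named whatever the outcome. Other genes came from lists of related genes (ISG15 pathway, other PARP, ADP-ribose hydrolase, HERC and Deltex genes, interferon signal, interferons, other interferon-stimulated genes, cell type markers), at most 4 named per list, and the 10 genes most like the members by correlation. Some of these genes are not reported here. The members and lists were chosen with earlier results of these data known. Gene names are those of the array design, except IFNL1 to IFNL3, which it lists as IL29, IL28A and IL28B, and exon or UTR placement of probes was not used here. Promoters came from RefSeq and were read with Python 3.11.15.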

Additional observations from a re-analysis of the deposited data

Results flagged for a closer look

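The response to a treatment differed between the lines for 2 members by a test of the difference itself. The log2 response to UNC0638 in RPMI-8226 minus that in MM.1S was -2.45 for PARP9 and -1.57 for DTX3L (limma, adjusted p = 0.00335 and 0.0121). The response to the combination in RPMI-8226 minus that in MM.1S was -1.45 for PARP9 and -1.18 for DTX3L (limma, adjusted p = 0.0136 and 0.0147). With normexp background correction the PARP9 value for the combination turned to 0.0927 (adjusted p = 0.795), and its call was lost without MM.1S combination replicate 2 (0.0562, limma). The DTX3L calls were lost without MM.1S UNC0638 replicate 2 for UNC0638 (0.0523) and without MM.1S DMSO replicate 2 for the combination (0.0572, limma). The genes lie head to head and share a start region. PARP9 was not above background on the DMSO arrays of MM.1S and DTX3L was. The slide changes with the line and its part was not tested.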

How the results depend on the processing

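Counts of members called, higher and lower together, moved past 1.5 times their value as follows, with the range on leaving out 1 array. The 2-fold rule asks for 2-fold in both same-numbered pairs of arrays, with no test. RPMI-8226, GSK126 against DMSO (1): 2 in a fit over 16 arrays, 2 by the 2-fold rule, 0 without the filter, 2 with the replicate block, 0 to 0 with 1 array left out. RPMI-8226, UNC0638 (0): 1 in the 16-array fit, 0 to 0 with 1 array left out. RPMI-8226, combination (4): 2 by the 2-fold rule, 2 without the filter, 1 to 4 with 1 array left out, while the 16-array fit gave 6, normexp 5 and the block 5. RPMI-8226, combination against GSK126 (0): 0 to 0; against UNC0638 (2): 7 in the 16-array fit, 4 with the percentile over detected probes, 1 with the strict filter, 1 without the filter, 5 with normexp, 0 to 1 with 1 array left out. MM.1S, GSK126 (3): 1 to 3 with 1 array left out. MM.1S, UNC0638 (5): 2 by the 2-fold rule, 3 with the strict filter, 3 without, 3 to 5 with 1 array left out. MM.1S, combination (7): 4 by the 2-fold rule, 6 to 7 with 1 array left out. MM.1S, combination against GSK126 (7): 3 in the 16-array fit, 1 by the 2-fold rule, 1 without the filter, 1 to 6 with 1 array left out; against UNC0638 (2): 0 by the 2-fold rule, 1 with the strict filter, 0 without, 0 to 2 with 1 array left out. DMSO between lines (8): 6 to 9 with 1 array left out. Responses between lines: GSK126 (0), 1 with the mean over probes, 1 with the block, 0 to 0 with 1 array left out; UNC0638 (2), 1 with the strict filter, 1 to 2; combination (2), 1 with the strict filter, 1 to 4. The PARP9 response to the combination between lines turned to 0.0927 with normexp. Under the strict filter PARP9 and HERC6 were not tested in MM.1S or between lines, so the lower counts there are not lost calls. Of the calls tested under it, 32 were kept and 1 was lost. The lost call was that of PARP14 for the combination against UNC0638 in RPMI-8226 (adjusted p = 0.0539, limma). Of 43 calls, 27 were kept without the filter, where more probes share the adjustment, and 43 with the series table. The replicate block kept 43 of 43 and added 8, of which 5 are SAMD9L, and in MM.1S, where not every pair of groups passed the pairing check, UBE2L6 (0.23, adjusted p = 0.0442) and HERC5 (-0.28, adjusted p = 0.0407) for UNC0638 and PARP10 (0.23, adjusted p = 0.0335) for the combination, limma. Other causes were not tested. Probes near background, PARP9 and HERC6 in MM.1S under DMSO, limit what a fold there can show.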
